A study of Mus musculus with 27 samples.

Results

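The 6 tibialis anterior muscles taken 14 days after volumetric muscle loss (VML) were compared with the 5 muscles of mice without injury. These 11 samples were chosen by the time point in their labels from the 27 samples of the series, which also holds muscles of days 3, 7 and 21. All mice are described as 8-week-old C57BL/6 males, the uninjured ones included. The methods give that age for the mice whose muscle was excised, and no age at sampling. VML was made by excising 40% of the tibialis anterior, a fast muscle at the front of the leg. The public record calls the excision unilateral and the methods call it bilateral, and the sample labels do not settle this. Messenger RNA of explanted muscle was sequenced in bulk, so the values average over fibres, fibroblasts, immune cells, vessels and nerve. Fewer cells of a type and less RNA per cell cannot be told apart in such samples. The labels do not say that each sample came from a separate mouse, and the p-values measure the spread between samples, which may be technical.

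After muscle injury, satellite cells, the stem cells of muscle, activate the myogenic regulatory factors, divide, and fuse with each other or with damaged fibres. New fibres first express embryonic and neonatal isoforms of the sarcomere proteins, and they spread their acetylcholine receptors along the membrane until a nerve ending concentrates them at the neuromuscular junction. Macrophages clear debris and fibroblasts lay down matrix, and in VML, in which the loss exceeds what the muscle can replace, the defect is known to fill with scar.

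Levels are given as FPKM, the fragment count of a gene per kilobase, scaled to a read number for each sample. The methods describe that number as the mapped reads, but in uninjured muscle it was below the reads assigned to genes. Of 54532 genes in the table, 14630 had 5 or more samples with FPKM of 0.5 or above and were tested with limma on log2(FPKM + 1). A gene was called higher or lower at a Benjamini-Hochberg adjusted p under 0.05. All log2 fold changes are differences of mean log2(FPKM + 1) between day 14 and uninjured muscle, with the standard error of the fit (SE) where given, and they understate the change of genes with low FPKM. SE and adjusted p-values are those of limma, with the spread estimated over all 27 samples of the series. Group values are means ± SD of FPKM, with n = 5 uninjured and n = 6 day 14 muscles.

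At day 14, 2969 genes were called, which is 20.3% of those tested. Of the tested genes, 9.02% (1320) were called higher and 11.3% (1649) lower, with median log2 fold changes of 0.74 and -0.66 among the genes called. Large changes were mostly increases, since 64 genes called higher exceeded a log2 fold change of 2 and 6 genes called lower passed -2. All 6 day 14 muscles lay above the uninjured range for 1122 tested genes (7.67%) and below it for 1178 (8.05%). When FPKM was rescaled to a common sum per sample (the TPM scale), the split turned to 2096 genes higher and 117 lower, and the median log2 fold change of all genes moved from 0.02 to 0.36. The read number to which the deposited FPKM values were scaled, recovered from the values, was 0.747 to 0.819 times the sample's own reads assigned to genes in uninjured muscle and 0.81 to 1.33 times at day 14, so the direction of small changes depends on the scaling. Without day 14 replicate 5 the counts were 835 higher and 1060 lower.

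Reads assigned to genes, recovered from FPKM and gene length, numbered 15469920 to 21014569 in the uninjured and 14555887 to 19930123 in the day 14 samples. The injured muscles were not alike. On the first principal component of all 27 samples, which held 41.4% of the variance, the uninjured muscles lay between -48.0 and -43.4 and the day 14 muscles between -18.5 and 10.2, with replicate 5 farthest from the uninjured ones and replicates 3 and 6 nearest. Day 14 replicate 1 had the largest scaling ratio of the day 14 muscles, 1.33, and the lowest transcripts of the respiratory chain. The fibre gene Acta1, which encodes skeletal actin, was at 27750 to 38020 FPKM in uninjured muscle and 14030 to 33430 at day 14, so every sample held muscle fibres. Defining T cell markers were near 0 in both groups, with Cd3d at 0 in every uninjured muscle and at most 0.514 FPKM at day 14.

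The largest increases included genes known from regenerating or unloaded fibres. Sln encodes sarcolipin, a small membrane peptide that restrains the calcium pump of the sarcoplasmic reticulum. Its FPKM in the uninjured muscles was 1.88, 2.43, 2.39, 1.17 and 1.296, and at day 14 the lowest value was 334, the median 588 and the highest 686. The groups lay far apart, with a ratio of the means of 300.3 and a log2 fold change of 7.595 ± 1.08 (SE, adjusted p = 0.00013). Sln (ENSMUSG00000042045) lies on chromosome 9 at 53850164 to 53854560 in GRCm38.

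Krt18 and Krt8 encode paired intermediate filament proteins best known from simple epithelia. Both were almost silent in uninjured muscle, at 0.0565 to 0.297 and 0 to 0.131 FPKM. At day 14 Krt18 ranged from 71.8 to 176 FPKM with a median of 130.4, and Krt8 from 34.4 to 74.9 FPKM with a median of 62.4. No day 14 muscle came near the uninjured range, and the log2 fold changes were 6.74 and 5.795 (adjusted p = 0.000163 and 0.000137). Both calls were lost with voom weights in limma (adjusted p = 0.103 for Krt18 and 0.0507 for Krt8). Among 10 tested keratins and other intermediate filament genes 5 were called higher and 1 lower, with Vim, vimentin, up by 1.97, Lmna, lamin A, by 1.28 and Nes, nestin, by 0.88 on the log2 scale.

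**Figure D1:**
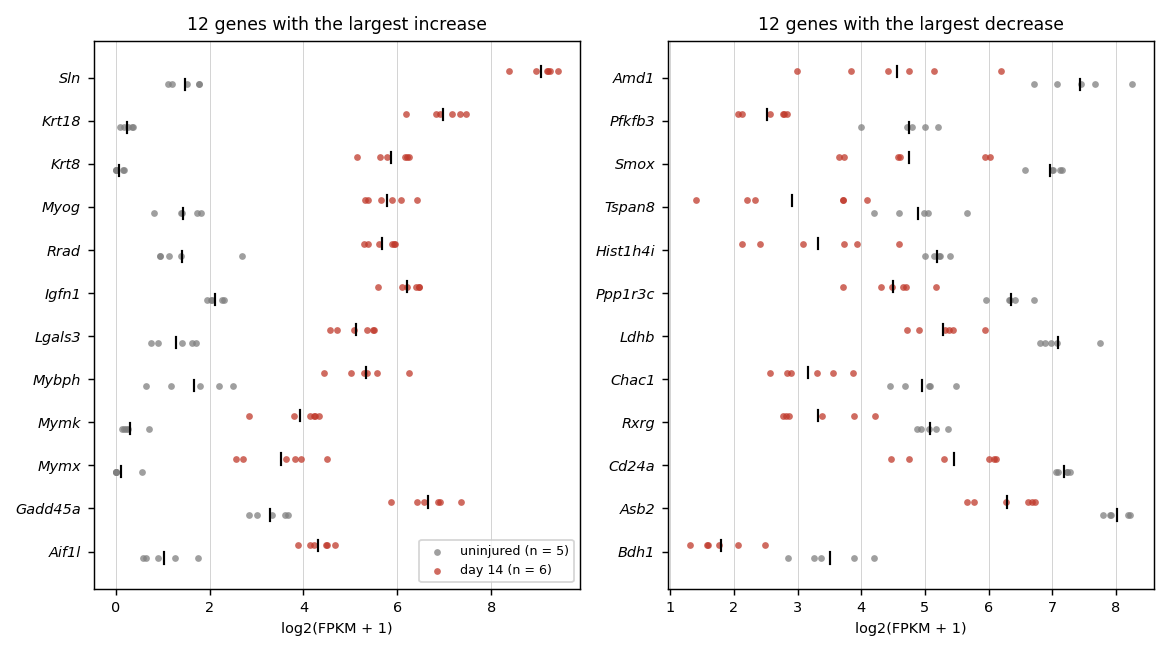
Level of the 12 top increases and 12 top decreases by log2 fold change among genes called with all 6 day 14 muscles outside the uninjured range, predicted genes left out. Each point is a muscle on the log2(FPKM + 1) scale, by group, and the bars are group means; Sln stands highest at day 14, and the day 14 muscles spread widely for Amd1.

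Other genes with large increases act in differentiating muscle cells. Myog encodes myogenin, the factor that starts terminal differentiation, and rose from 1.78 ± 0.694 to 56.2 ± 17.5 FPKM (log2 fold change 4.35 ± 0.75, adjusted p = 0.000527). Mymk and Mymx encode myomaker and myomixer, the membrane proteins that make myoblasts fuse. Mymk ranged from 0.0994 to 0.6204 FPKM in uninjured muscle and from 6.18 to 19.3 at day 14, with a median of 17.1. Mymx was at 0, 0, 0, 0 and 0.466 FPKM in the uninjured muscles and ranged from 4.87 to 21.7 at day 14. Of the day 14 muscles, replicate 6 was lowest for both, and neither gene overlapped between the groups. The call of Mymx was lost with voom weights (adjusted p = 0.0626).

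Igfn1, a muscle protein with immunoglobulin and fibronectin domains, rose from 3.36 ± 0.492 to 74.3 ± 15.5 FPKM, and Mybph, a myosin-binding protein, from 2.5 ± 1.67 to 42.1 ± 18.5 FPKM. Gadd45a, a stress-response gene induced in denervated muscle, rose from 9.06 ± 2.46 to 106 ± 36 FPKM. Rrad, a small GTPase that restrains voltage-gated calcium channels, rose from 2.02 ± 1.94 to 50.9 ± 10.2 FPKM. Lgals3 encodes galectin-3, which macrophages express strongly, and it rose from 1.51 ± 0.707 to 34.7 ± 9.33 FPKM. Aif1l, an actin-binding protein, had a log2 fold change of 3.28. These genes, with Sln, Krt18, Krt8, Myog, Mymk and Mymx, were the 12 largest increases among called genes whose groups did not overlap, predicted genes left out.

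Of 25 tested genes for myogenic regulation, adhesion and fusion, 6 were called higher and 0 lower, with a median log2 fold change of 0.24 beside 0.02 for all genes. The 6 were Myog, Mymk, Mymx, Myod1, Ncam1 and Dll1. Myod1, which commits cells to the muscle lineage, rose from 19.1 ± 3.73 to 78.8 ± 16.4 FPKM, and Dll1, a ligand of the Notch receptor, had a log2 fold change of 1.31. Markers of the satellite cells did not pass the test. Pax7 was at 0.489 ± 0.222 and 0.647 ± 0.288 FPKM in uninjured and day 14 muscle (log2 fold change 0.14 ± 0.15, adjusted p = 0.535), and Myf5 had a log2 fold change of 0.51 (adjusted p = 0.228). The ranges of both overlapped between the groups.

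Several developmental isoforms of the sarcomere rose, while most adult fast isoforms did not pass. Of 13 tested developmental isoforms, 8 were called higher and 0 lower (median log2 fold change 1.52). All 6 day 14 muscles lay above the uninjured range for 9 of the 13, beside 7.67% of all tested genes. Myh3 and Myh8 encode the embryonic and neonatal myosin heavy chains. Myh3 was at 0.669, 0.566, 0.633, 0.228 and 0.485 FPKM in the uninjured muscles and between 3.698 and 14.6 at day 14, with a median of 11.1. Myh8 was at most 0.985 FPKM in uninjured muscle and between 3.14 and 16.3 at day 14. The groups did not overlap for either, and of the day 14 muscles replicate 6 was lowest for both. Myh3 rose by a log2 fold change of 2.81 ± 0.65 and Myh8 by 3.08 ± 0.71 (adjusted p = 0.00432 and 0.00427). Tnni1 and Tnnt1, the troponins of slow fibres, which developing muscle also uses, rose by log2 fold changes of 2.39 and 2.48, and the cardiac troponin gene Tnnt2 by 1.52.

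Per length, these isoforms remained a small part of the myosin transcripts. Myh4, the adult IIb myosin heavy chain, was at 5195 ± 838 and 3016 ± 1447 FPKM, with 2126 as its lowest and 5764 as its highest day 14 value. Its groups overlapped, and it was not called (log2 fold change -0.88 ± 0.41, adjusted p = 0.132). Of 22 adult fast fibre genes, 4 were called lower and 0 higher (median -0.69, with 18.2% lower beside the 11.3% of all genes). These were Mylk2, the myosin light chain kinase of skeletal muscle (log2 fold change -1.25), Ckm, the muscle creatine kinase (-1.08), Mybpc2, a myosin-binding protein (-1.01), and Pygm, the muscle glycogen phosphorylase (-0.92). The count of 4 became 2 without uninjured replicate 2 or 4 or day 14 replicate 4, and 1 without uninjured replicate 5, without day 14 replicate 5 or with TPM. The call of Ckm was lost without uninjured replicate 5 or day 14 replicate 5, or with no filter on low values, TPM or quantile normalization (adjusted p up to 0.365).

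Among 13 slow fibre genes 4 were called higher and 0 lower, namely Sln, Tnnt1, Tnni1 and Atp2a2. The slow myosin Myh7 had a log2 fold change of 0.31 (adjusted p = 0.684), and Myl2, a slow myosin light chain, was at 7.07 ± 6.16 and 6.995 ± 4.96 FPKM without passing. Of 19 genes for large sarcomere scaffolds and titin partners, 6 were called lower and 1 higher (median -0.61). Ttn, which encodes titin, was at 55.8 ± 5.06 and 46.7 ± 6.48 FPKM (log2 fold change -0.26, adjusted p = 0.466), and Neb, nebulin, had a log2 fold change of -0.31 without passing. Myom3, a myomesin of the M-band, went the other way and rose from 3.95 ± 1.52 to 20.1 ± 6.34 FPKM. Ankrd23, a stretch-responsive titin partner, fell by 1.53 on the log2 scale and Synm, the filament protein synemin, by 1.42. The 6 lower calls became 3 without day 14 replicate 5 and 0 with TPM.

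Of 16 genes of the dystrophin complex, which ties the cytoskeleton of the fibre to the matrix, 5 were called lower and 1 higher. Nos1, the neuronal nitric oxide synthase docked to the complex, fell from 10.8 ± 1.97 to 4.41 ± 1.697 FPKM. Dmd, dystrophin itself, was at 1.96 ± 0.441 and 2.28 ± 0.644 FPKM and did not pass (adjusted p = 0.548). The 5 lower calls became 3 without uninjured replicate 1 or 4 and 2 without uninjured replicate 2, 3 or 5 or day 14 replicate 4 or 5. With TPM there were 0, and the median of the list turned from -0.27 to 0.13.

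The genes of the neuromuscular junction moved in both directions, and subunits of the embryonic receptor led. The receptor of fetal and denervated muscle is built from alpha, beta, delta and gamma subunits, and the adult one carries an epsilon in place of the gamma subunit. Chrng, the gamma subunit, was at 0.0361, 0, 0.0614, 0.137 and 0.0656 FPKM in the uninjured muscles and between 6.05 and 9.69 at day 14. Chrna1, the alpha subunit, was at 2.93, 5.11, 3.44, 3.82 and 3.68 FPKM in the uninjured muscles and at 24.4 to 67.8 with a median of 50.5 at day 14. Every day 14 muscle exceeded every uninjured one for both genes. Chrna1 rose by a log2 fold change of 3.25 ± 0.56 (adjusted p = 0.000525) and Chrng by 3.002 ± 0.53 (adjusted p = 0.000671).

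Chrnd, the delta subunit, rose from 0.905 ± 0.679 to 14.1 ± 2.61 FPKM, and Chrnb1, the beta subunit, from 15.3 ± 3.06 to 43.9 ± 6.04 FPKM. Chrne, the adult epsilon subunit, was at 12.8 ± 3.95 and 17.2 ± 4.17 FPKM, with overlapping ranges (log2 fold change 0.42 ± 0.43, adjusted p = 0.511), so the adult subunit was transcribed in both groups. Musk, the kinase that gathers receptors at the synapse, rose from 0.386 ± 0.151 to 1.96 ± 0.864 FPKM. Rapsn, the scaffold under the receptors, fell by 0.54 on the log2 scale and Scn4a, the adult sodium channel, by 0.71, and neither call was left with TPM. In all, 6 of 18 junction genes were called higher and 2 lower (median 0.34). These are shares of 33.3% and 11.1%, beside the 9.02% and 11.3% of all genes.

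Promoter sequences are shown for the receptor genes because the myogenic factors Myod1 and Myog, both higher at day 14, bind E-boxes, and receptor subunit genes are textbook targets of them. The stretches are from RefSeq (GRCm38.p6), run 5′ to 3′ on the strand of the gene from 170 to 31 bases before the start site, and carry the E-box CAGCTG in capitals, a motif that reads the same on both strands. Chrna1, Chrng and Musk were called higher, and Chrne is shown as a subunit that was not. They lie at chr2:73580369-73580508 (minus strand), chr1:87205641-87205780 (plus), chr4:58285792-58285931 (plus) and chr11:70619225-70619364 (minus).
Chrna1: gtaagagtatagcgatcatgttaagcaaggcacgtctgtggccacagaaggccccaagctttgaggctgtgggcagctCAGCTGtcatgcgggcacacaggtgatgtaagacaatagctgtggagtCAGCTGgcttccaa
Chrng: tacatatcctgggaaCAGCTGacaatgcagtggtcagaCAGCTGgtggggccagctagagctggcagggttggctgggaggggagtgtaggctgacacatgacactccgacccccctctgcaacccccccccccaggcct
Musk: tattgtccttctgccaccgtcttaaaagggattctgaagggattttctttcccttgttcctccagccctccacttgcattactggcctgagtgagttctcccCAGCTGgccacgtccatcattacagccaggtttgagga
Chrne: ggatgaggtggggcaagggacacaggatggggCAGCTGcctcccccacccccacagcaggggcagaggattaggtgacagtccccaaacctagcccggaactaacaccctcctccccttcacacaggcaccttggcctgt
Chrna1 holds the motif at -92 and -44, Chrng at -155 and -132, Musk at -68 and Chrne at -138, counted from the RefSeq start site. The start site of Chrng lies 1154 bases downstream of the start of the gene in the table, so the printed stretch lies inside the gene as the table gives it. The 250 bases before the start held CAGCTG in 13% of 32851 promoter windows and more than 1 copy in 1.26%. Of 12 junction genes with a window, 6 held it in at least 1 window, the uncalled Chrne among them, and of 5 called genes with a window 3 held it, Chrnb1 not among them. Some genes have several windows, such as Prkar1a with 6, of which 2 held it. Counts of genes and the share of windows are therefore unlike measures. A match describes letters in these windows and not a binding site.

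**Figure D2:**
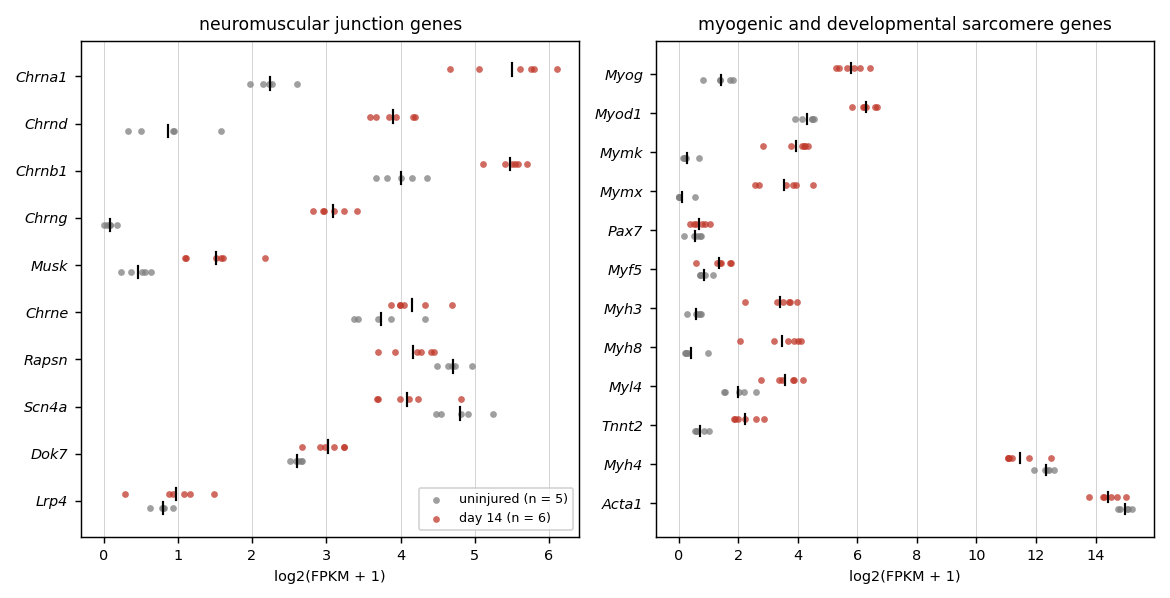
Level of neuromuscular junction genes and of myogenic and sarcomere genes in each of the 5 uninjured and 6 day 14 muscles on the log2(FPKM + 1) scale, with bars for group means. The receptor genes Chrna1, Chrnd and Chrng separate the groups, whereas Chrne overlaps.

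Beyond the junction, 12 of 16 tested genes known to respond to denervation or disuse were called higher and 1 lower (median log2 fold change 1.58). The list shares Myog, Musk, Chrng and Sln, among others, with the groups above. Runx1, a transcription factor induced in denervated fibres, rose from 0.154 ± 0.0666 to 4.14 ± 0.599 FPKM (log2 fold change 2.15 ± 0.38, adjusted p = 0.000643). Ankrd1, a stress-responsive titin partner, rose from 10.1 ± 4.62 to 74.2 ± 16.8 FPKM and Ncam1, the neural cell adhesion molecule, from 0.4397 ± 0.115 to 3.79 ± 0.432 FPKM. The member that fell was Fbxo32, the ubiquitin ligase atrogin-1 of muscle atrophy, from 32.3 ± 6.46 to 14.4 ± 3.96 FPKM, a call that was lost with TPM. Trim63, the ligase MuRF1, did not pass (log2 fold change -0.399, adjusted p = 0.271). Schwann cell and nerve genes gave 0 calls among 10 tested (median -0.33, which was 0.04 with TPM).

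Genes of the fibrous matrix rose widely. Of 15 fibrillar and fibril-associated collagens 11 were called higher and 0 lower (median log2 fold change 1.35), a share of 73.3% beside the 9.02% of all genes, and leaving out any single muscle left 11 or 12. Col3a1, a collagen of early scar, was at 27.3, 23.9, 9.72, 19.7 and 16.4 FPKM in the uninjured muscles and at 46.7 to 209.7 with a median of 172 at day 14. Col1a1, the main collagen of mature scar and tendon, was at 12.7 to 36.8 FPKM in uninjured muscle and 61.9 to 260.3 at day 14. Neither overlapped between groups, and replicate 6 was the lowest day 14 muscle for both. Col3a1 rose by a log2 fold change of 2.68 ± 0.37 (adjusted p = 9.75e-05) and Col1a1 by 2.501 ± 0.37 (adjusted p = 0.000177). Over the whole list, the median difference from the uninjured mean was 0.66 in day 14 replicates 3 and 6 and 1.59 to 1.80 in the other 4 muscles.

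The enzymes that process collagen followed, with 12 of 17 called higher and 1 lower (median 0.66). Lox, which cross-links collagen and elastin, rose from 1.12 ± 0.192 to 4.93 ± 1.26 FPKM, Serpinh1, a collagen chaperone, from 41.02 ± 8.12 to 96.6 ± 27.5 FPKM, and Pcolce, which speeds the trimming of procollagen, from 12.6 ± 2.53 to 33.3 ± 12.6 FPKM. The member that fell was P4ha2, a prolyl hydroxylase (log2 fold change -0.43, adjusted p = 0.0456), and no member was called lower with TPM or without day 14 replicate 1 or 5. Of 25 matrix glycoproteins and proteoglycans 15 were called higher and 0 lower (median 1.08). Fn1, fibronectin, rose from 3.02 ± 1.11 to 14.5 ± 7.02 FPKM, and Postn, periostin, from 2.58 ± 2.28 to 19.7 ± 12.3 FPKM, the latter with overlapping ranges. Mfap4, a microfibril protein, rose by a log2 fold change of 2.35. Decorin (Dcn, 0.38) and fibromodulin (Fmod, -0.12) did not pass.

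Of 13 basement membrane genes 7 were called higher and 0 lower (median 0.64). Col18a1, the source of endostatin, rose from 1.93 ± 0.568 to 6.76 ± 2.36 FPKM. Col4a1 rose by 0.93 ± 0.31 on the log2 scale (adjusted p = 0.0331), a call lost without uninjured replicate 3 or 5 or day 14 replicate 1, 4 or 5, or with no filter on low values (adjusted p up to 0.0978), and Col4a2 had a log2 fold change of 0.73 (adjusted p = 0.0581). These neighbours overlap on opposite strands and the libraries were not directional, so reads of the overlap cannot be told apart. The 7 calls became 4 without uninjured replicate 3 or 5 or day 14 replicate 1, 4 or 5. Of 23 matrix proteases and inhibitors 6 were called higher and 0 lower (median 0.52). Timp1, an inhibitor of matrix metalloproteinases, rose from 2.85 ± 2.22 to 13.8 ± 6.74 FPKM, the gelatinase gene Mmp2 from 10.5 ± 2.26 to 34.2 ± 13.6 FPKM, and Mmp14, whose product activates that of Mmp2, from 4.46 ± 0.732 to 14.6 ± 5.28 FPKM. With a fit of these 2 groups alone, 14 were called higher and 1 lower.

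Among the TGF-beta ligands, receptors and regulators, a pathway that drives matrix synthesis, 8 of 23 were called higher and 2 lower (median 0.29). Tgfb1 was at 2.47 to 3.71 FPKM in uninjured muscle and 9.52 to 12.7 at day 14, with no overlap (log2 fold change 1.65 ± 0.36, adjusted p = 0.00309). Fstl1, a secreted follistatin relative, rose from 5.93 ± 1.44 to 21.6 ± 8.32 FPKM, and Tgfbr2, a receptor of the pathway, by a log2 fold change of 0.84. Tgfb2 fell by 0.603 on the log2 scale and Smad4, which carries the signal to the nucleus, by 0.46, and neither call was left with TPM. The 8 higher calls became 5 without uninjured replicate 1 or day 14 replicate 4 or 5. With all muscles the shares were 34.8% higher and 8.7% lower, beside the 9.02% and 11.3% of all genes.

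Of 17 markers of fibroblasts and fibro-adipogenic progenitors 7 were called higher and 0 lower (median 0.53), so these markers moved with the matrix genes, and their part in the matrix values was not tested. Mfap5, called higher, is in this list and in that of the matrix glycoproteins, so the lists are not independent. Dpt, dermatopontin, had a log2 fold change of 1.14, and Pdgfra, the receptor that marks these cells, of 0.53, a call lost without uninjured replicate 3 or day 14 replicate 5, or with quantile normalization (adjusted p up to 0.0536). Contractile genes of myofibroblasts and smooth muscle gave 2 higher and 1 lower of 14 (median -0.03, which was 0.37 with TPM and 0.14 with quantile normalization). These are shares of 14.3% and 7.14%, beside the 9.02% and 11.3% of all genes. Acta2, smooth muscle actin, was at 71.6 ± 25.9 and 75.5 ± 26.4 FPKM (adjusted p = 0.858).

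**Figure D3:**
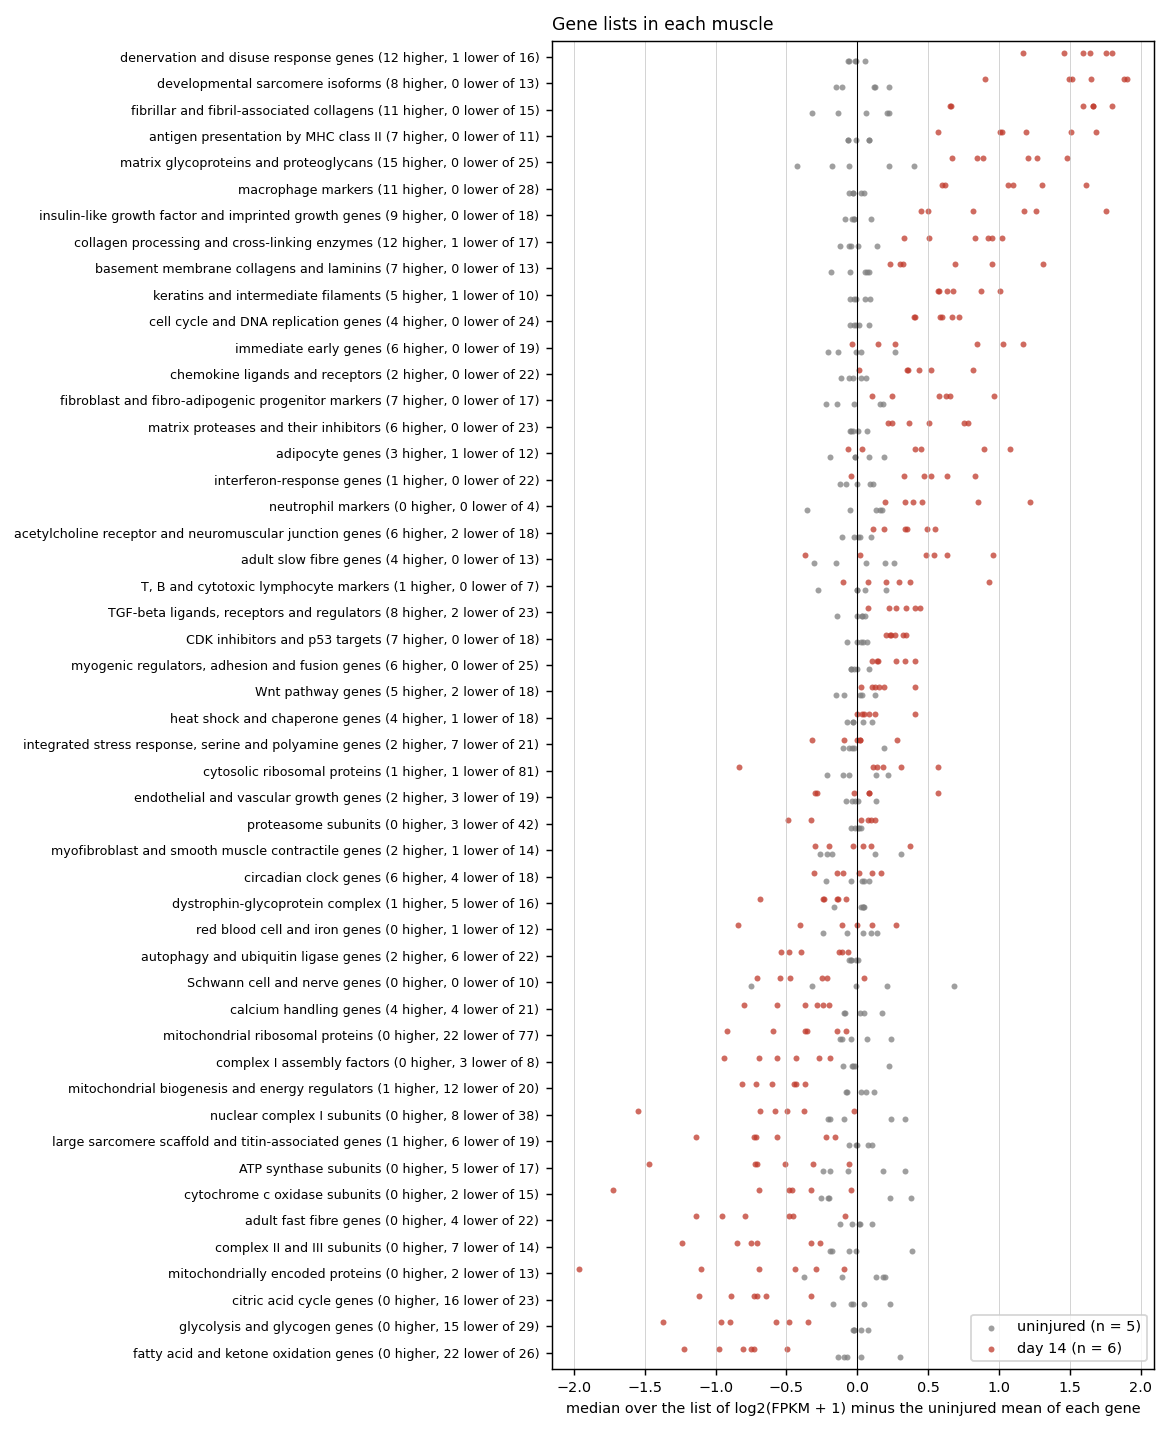
Median, over the tested members of each of the 50 gene lists, of the difference in log2(FPKM + 1) from the uninjured mean, in each of the 5 uninjured and 6 day 14 muscles. Lists of collagens, developmental isoforms and denervation genes lie to the right at day 14, at medians of 1.35, 1.52 and 1.58, and lists of energy metabolism to the left.

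Of the immune lists, antigen presentation had the highest median log2 fold change, though single genes of other lists, such as Ccl8 (3.24), rose more. Of 11 tested genes of MHC class II presentation 7 were called higher and 0 lower (median 1.22). H2-Ab1, a chain of the class II molecule, was at 13.03, 11.04, 7.81, 11.6 and 14.8 FPKM in the uninjured muscles and 23.9 to 64.7 with a median of 41.8 at day 14, with no overlap. It rose by a log2 fold change of 1.79 ± 0.32 (adjusted p = 0.000643), and H2-Eb1, H2-Aa and the chaperone Cd74 by 1.92, 1.87 and 1.61. Of 28 macrophage markers 11 were called higher and 0 lower (median 1.05). In all 6 day 14 muscles 18 of the 28 lay above the uninjured range, beside 7.67% of all tested genes. Cd68, a lysosomal protein of macrophages, rose from 1.61 ± 0.636 to 10.1 ± 3.09 FPKM, a call lost with no filter on low values or voom weights (adjusted p up to 0.154). Adgre1, which encodes F4/80, was at 0.232 ± 0.0614 and 0.733 ± 0.411 FPKM and did not pass (adjusted p = 0.495). The 11 calls became 7 without uninjured replicate 3 or 5 or day 14 replicate 4 or 5, and 22 with a fit of these 2 groups alone.

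The number of calls in other immune groups depended on the fit. Of 22 chemokine genes 2 were called higher, a share of 9.09% beside the 9.02% of all genes, namely Ccl8, from 0.0954 ± 0.213 to 10.3 ± 5.05 FPKM, and Ccl5, from 0.398 ± 0.379 to 3.49 ± 2.21 FPKM, while Ccl2 was at 0.238 ± 0.232 and 1.05 ± 0.7504 FPKM (adjusted p = 0.412). The call of Ccl5 was lost without uninjured replicate 1, 2, 3, 4 or 5 or day 14 replicate 1, 2, 4 or 5, or with no filter on low values, quantile normalization or voom weights (adjusted p up to 0.109). Neutrophil markers gave 0 calls among the 4 tested, with S100a8 at 0.768 ± 0.575 and 2.73 ± 1.18 FPKM (adjusted p = 0.186). Lymphocyte markers gave 1 call of 7, Klrd1, a receptor of natural killer cells, which was listed at 0 in every uninjured muscle and at up to 1.41 FPKM at day 14. Its call was lost without uninjured replicate 1, 2, 3, 4 or 5 or day 14 replicate 1, 2, 4, 5 or 6, or with no filter on low values, TPM or quantile normalization (adjusted p up to 0.121). Interferon-response genes gave 1 call of 22, Irf9, a transcription factor of the pathway (log2 fold change 0.51, adjusted p = 0.0351), which was lost without uninjured replicate 1, 4 or 5 or day 14 replicate 1, 4 or 5, or with no filter on low values or quantile normalization (adjusted p up to 0.105). The 1 lymphocyte call is 14.3% of its list and the 1 interferon-response call 4.55%, beside the 9.02% of all genes. With TPM 8 interferon-response genes were called higher. With a fit of these 2 groups alone, 8 chemokine, 2 neutrophil, 2 lymphocyte and 7 interferon-response genes were called higher.

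Energy metabolism made up most of the groups with decreases. Of 26 tested genes of fatty acid and ketone oxidation, 22 were called lower and 0 higher, a share of 84.6% beside the 11.3% of all genes (median log2 fold change -0.86). In all 6 day 14 muscles 18 of the 26 lay below the uninjured range, beside 8.05% of all tested genes. Acadm, the medium-chain acyl-CoA dehydrogenase, was at 90.6, 73, 66.6, 73.4 and 83.6 FPKM in the uninjured muscles and at 22.7 to 48.9 with a median of 36.4 at day 14. The groups did not overlap, and replicate 5 was lowest. Acadm fell by 1.18 ± 0.27 on the log2 scale (adjusted p = 0.00381), Cpt2, which acts in the import of fatty acids into the mitochondrion, by 0.67, and Bdh1, which interconverts ketone bodies, by 1.71. Of 23 citric acid cycle genes 16 were called lower and 0 higher (median -0.74), with Idh2, an isocitrate dehydrogenase, falling from 66.4 ± 13.7 to 30.95 ± 2.52 FPKM. Cs, citrate synthase, fell from 157 ± 15 to 103 ± 16.99 FPKM, a call lost without uninjured replicate 1, 2 or 5 or day 14 replicate 4 or 5, or with no filter on low values, TPM or quantile normalization (adjusted p up to 0.688). The 16 calls became 9 without uninjured replicate 1 or 5 or day 14 replicate 4 or 5.

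Of 29 genes of glycolysis and glycogen, 15 were called lower and 0 higher (median -0.78). Pfkfb3, whose product activates glycolysis, was at 15.01, 26.7, 31, 36.1 and 25.2 FPKM in the uninjured muscles and at 3.17 to 6.12 at day 14, with no overlap (log2 fold change -2.22 ± 0.302, adjusted p = 9.75e-05). Ppp1r3c, which targets a phosphatase to glycogen, fell from 81.5 ± 15.2 to 22.8 ± 7.66 FPKM and Ldhb, the heart form of lactate dehydrogenase, from 140.3 ± 42.5 to 39.5 ± 12.4 FPKM. Pfkm, the muscle phosphofructokinase, fell from 1472 ± 74.97 to 689 ± 197 FPKM. Aldoa (ENSMUSG00000030695), an aldolase, had a log2 fold change of -0.62 (adjusted p = 0.166) and did not pass, nor did Gapdh, Hk1 and Eno1, with 0.23, 0.49 and 0.43. The 15 calls became 8 without day 14 replicate 5, and with a fit of these 2 groups alone 2 were called higher.

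Each complex of the respiratory chain had subunits that were called lower. Of 38 nuclear complex I subunits 8 were called lower and 0 higher (median -0.59), of 14 genes of complexes II and III and cytochrome c 7 were lower (-0.71), of 15 cytochrome c oxidase subunits 2 (-0.68, a share of 13.3% beside the 11.3% of all genes) and of 17 ATP synthase subunits 5 (-0.64). Sdhd, which anchors succinate dehydrogenase, fell from 301 ± 38.3 to 144 ± 46.9 FPKM, and Cox5a, a cytochrome c oxidase subunit, from 298 ± 55.03 to 140 ± 55.2 FPKM, both with no overlap between groups, and both calls were lost with TPM. With TPM the lower calls numbered 0 for complex I, 0 for complexes II and III, 0 for cytochrome c oxidase, of which 1 was called higher, and 0 for ATP synthase. With the replicate number as a block in the fit, the lower calls numbered 18, 11, 8 and 11 in the same order. Day 14 replicate 1 was lowest for complex I, with a list median of -1.55 against -0.68, -0.38, -0.498, -0.58 and -0.03 in replicates 2 to 6. The complex I count became 3 without uninjured replicate 1, 5 without day 14 replicate 1 or 5, and 13 without day 14 replicate 6. The count for complexes II and III became 2 without uninjured replicate 1 or day 14 replicate 5 and 4 without uninjured replicate 2, 4 or 5 or day 14 replicate 1, 2 or 4. That for ATP synthase became 3 without uninjured replicate 1 or day 14 replicate 1 or 5 and 9 without day 14 replicate 6.

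Of 13 proteins encoded in mitochondrial DNA, mt-Co3 and mt-Co2, both cytochrome c oxidase subunits, were called lower and 0 higher (median -0.71). The 2 calls are 15.4% of the list, beside the 11.3% of all genes called lower. mt-Co3 was at 1059 to 3783 FPKM in uninjured muscle and 255 to 1252 at day 14, so the ranges overlapped, and its gene overlaps mt-Atp6 in reads that cannot be told apart. The call of mt-Co2 was lost without uninjured replicate 3 or 4 or day 14 replicate 1, or with no filter on low values or quantile normalization (adjusted p up to 0.113). Mitochondrial ribosomal proteins gave 22 lower and 0 higher of 77 (median -0.405), which became 10 without uninjured replicate 1, 13 without day 14 replicate 1, 12 without day 14 replicate 5 and 0 with TPM. Complex I assembly factors gave 3 of 8 lower, which became 1 without uninjured replicate 1, 2 or 5 or day 14 replicate 1, 4 or 5, and 0 with TPM. With the replicate number as a block, the lists of this paragraph gave 3, 37 and 5 lower calls in order.

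The cytosolic ribosome differed from the mitochondrial one in its counts. Of 81 cytosolic ribosomal proteins 1 was called higher and 1 lower (median 0.06), with 25 higher under TPM, 25 under quantile normalization and 10 without day 14 replicate 1. The gene called higher was Rpl3, from 18.1 ± 2.15 to 50.4 ± 5.89 FPKM with no overlap, while its muscle paralog Rpl3l was at 488 ± 86.2 and 269.8 ± 86.4 FPKM (log2 fold change -0.89, adjusted p = 0.0876). Reads from stretches that both paralogs share could be assigned to either.

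The decreases of energy genes depended on which scaling was used. Median-ratio scaling divides each sample by the median, over genes, of the ratio to the gene's geometric mean over samples. Under it, the lower calls for fatty acid oxidation, citric acid cycle, glycolysis and complex I numbered 22, 15, 15 and 8. With FPKM as deposited they numbered 22, 16, 15 and 8. With TPM the medians were -0.39 for fatty acid oxidation, -0.27 for the citric acid cycle, -0.32 for glycolysis and -0.12 for complex I, beside 0.36 for all genes, and the lower calls numbered 2, 0, 5 and 0. Relative to the median of all genes, the same lists stood at -0.75, -0.63, -0.68 and -0.49 with TPM and at -0.88, -0.76, -0.797 and -0.61 with FPKM as deposited. With quantile normalization they stood at -0.51, -0.38, -0.41 and -0.25 relative to all genes, and the lower calls numbered 14, 3, 4 and 3. The mitochondrial ribosomal proteins turned from -0.405 to 0.03 with TPM, and relative to all genes from -0.42 to -0.33. The calls of Acadm, Cpt2 and Idh2 were lost with TPM and that of Pfkm with quantile normalization. Pfkfb3, Ppp1r3c, Ldhb, Bdh1, Nmrk2 and Perm1 kept their calls and directions in all 22 alternatives tried.

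**Figure D4:**
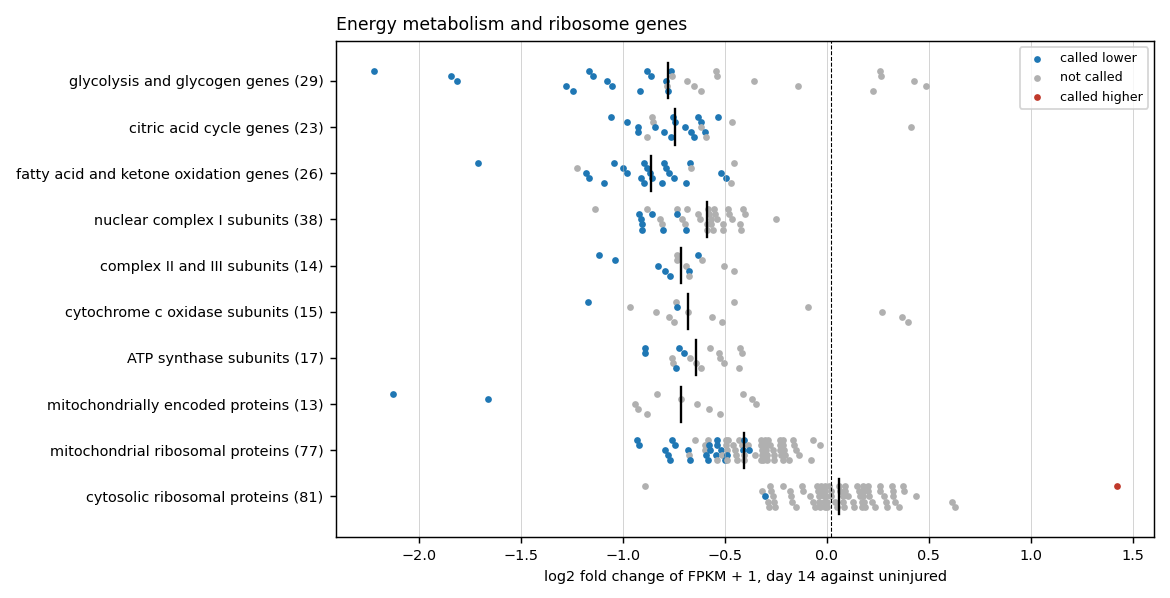
Log2 fold change of FPKM + 1 at day 14 for the tested members of lists of energy metabolism and ribosome genes, in blue for genes called lower, red for higher and grey for not called, with black bars for list medians. The dashed line is the median of all tested genes, 0.02; fatty acid oxidation lies lower, at a median of -0.86, and the cytosolic ribosomal proteins lie around it, at 0.06.

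Of 20 regulators of mitochondrial content and energy use, 12 were called lower and 1 higher (median -0.57), and with TPM 3 were called lower at a median of -0.17. Ppargc1a, which encodes the coactivator PGC-1alpha, fell from 4.75 ± 0.927 to 2.48 ± 0.364 FPKM (log2 fold change -0.72 ± 0.19, adjusted p = 0.0117), and Esrra, a nuclear receptor that it activates, from 71.4 ± 22.04 to 36.1 ± 7.33 FPKM. Neither call held with TPM, and Esrra overlaps Trmt112 in reads that cannot be told apart. Perm1, a muscle regulator of oxidative genes, fell from 91.3 ± 19.3 to 30.8 ± 10.9 FPKM, and Nmrk2, a kinase of NAD+ synthesis that overlaps Atcayos, from 210.2 ± 24.1 to 66.2 ± 9.71 FPKM. The member that rose was Prkag3, a regulatory subunit of AMP-activated kinase, by a log2 fold change of 0.81.

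The largest single decrease was in polyamine synthesis. Amd1, the decarboxylase that supplies the aminopropyl groups of spermidine and spermine, was at 104, 174, 134, 305 and 203 FPKM in the uninjured muscles and at 6.97 to 72.6 with a median of 23.2 at day 14. The groups did not overlap, and of the day 14 muscles replicate 5 was lowest and replicate 2 highest (log2 fold change -2.87 ± 0.65, adjusted p = 0.00371). Its near-identical copy Amd2 fell by 1.13 on the log2 scale, and reads could be split between them. Smox, spermine oxidase, fell from 126 ± 18.6 to 32.5 ± 23.8 FPKM and Chac1, which degrades glutathione, from 30.98 ± 8.95 to 8.46 ± 3.29 FPKM. Of 21 genes of the integrated stress response, serine and polyamine metabolism 7 were called lower and 2 higher (median 0.12), the higher ones being Atf3 and Asns, while Atf4, the central factor of the response, fell by 0.71, a call lost with TPM or quantile normalization.

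The other large decreases fall in several pathways. Tspan8, a tetraspanin, Rxrg, a retinoid X receptor, Cd24a, a surface glycoprotein, and Asb2, a ubiquitin ligase subunit, had log2 fold changes of -1.99, -1.76, -1.73 and -1.72. Hist1h4i, a histone gene with near-identical copies between which reads could be split, had -1.88. With Amd1, Pfkfb3, Smox, Ppp1r3c, Ldhb, Chac1 and Bdh1 these were the 12 largest decreases among called genes whose groups did not overlap, predicted genes left out. Genes with overlapping ranges, such as mt-Co3, were not ranked here.

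Autophagy and ubiquitin ligase genes gave 6 lower and 2 higher of 22 (median -0.31, which was 0.11 with TPM). These are shares of 27.3% and 9.09%, beside the 11.3% and 9.02% of all genes. Foxo4, a transcription factor of the FoxO family, fell from 42.9 ± 9.72 to 19.3 ± 6.19 FPKM, a call lost with TPM, and Ddit4, an inhibitor of mTOR signalling, rose from 3.26 ± 0.693 to 9.52 ± 3.79 FPKM. Proteasome subunits gave 3 lower and 0 higher of 42 (median -0.03, which was 0.43 with TPM and 0.15 with quantile normalization), and the 3 became 1 without uninjured replicate 2, 3, 4 or 5 or day 14 replicate 1, 4 or 5. The 3 are 7.14% of the list, beside the 11.3% of all genes called lower. Heat shock genes gave 4 higher and 1 lower of 18 (median 0.17), led by Hspa1b, at 0.997, whose sequence is almost that of Hspa1a, and the 4 became 2 without day 14 replicate 5. With all muscles the shares were 22.2% and 5.56%, beside the 9.02% and 11.3% of all genes.

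Calcium-handling genes gave 4 higher and 4 lower of 21 (median -0.39, which was 0.04 with TPM). Each is a share of 19.05%, beside the 9.02% and 11.3% of all genes. Besides Sln and Rrad, Atp2a2, the calcium pump of slow fibres, rose from 4.46 ± 0.878 to 17.1 ± 4.91 FPKM. The pump of fast fibres, Atp2a1, was at 4616 ± 1037 and 3094 ± 837 FPKM and did not pass (adjusted p = 0.137). Jph1 and Jph2, junctophilins that hold the membranes of the triad together, fell by 1.11 and 1.21 on the log2 scale, and with TPM 0 genes of this list were called lower.

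Of 18 tested genes of the insulin-like growth factor and imprinted group 9 were called higher and 0 lower (median 1.04). H19, a maternally expressed long noncoding RNA of fetal tissues, was at 146 to 364 FPKM in uninjured muscle and 775 to 1212 at day 14 (log2 fold change 2.24 ± 0.57, adjusted p = 0.00834). Igfbp2, a binding protein of these growth factors, was at 0.0813, 0, 0, 0 and 0 FPKM in the uninjured muscles and ranged from 2.58 to 6.59 at day 14. Neither gene overlapped between groups. Igf1 itself had a log2 fold change of 0.51 (adjusted p = 0.0857) and its receptor Igf1r of -0.03, and neither passed.

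Genes that stop the cell cycle rose alongside some that drive it. Of 18 CDK inhibitors and p53 targets 7 were called higher and 0 lower (median 0.27). Cdkn1a, which encodes p21, was at 3.903 to 6.32 FPKM in uninjured muscle and 24.8 to 49.5 at day 14 with a median of 32.6 and no overlap (log2 fold change 2.47 ± 0.57, adjusted p = 0.00437). Eda2r, a receptor of the TNF family, rose from 1.35 ± 0.377 to 10.9 ± 2.39 FPKM. Cdkn2a was listed at 0 in all 5 uninjured muscles and at 0.397 to 1.23 FPKM at day 14, and its call was lost without uninjured replicate 1, 2, 4 or 5 or day 14 replicate 5 or 6, or with no filter on low values (adjusted p up to 0.0688).

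Of 24 cell cycle genes 4 were called higher and 0 lower (median 0.57). Rrm2, the ribonucleotide reductase subunit made in dividing cells, rose from 0.404 ± 0.0863 to 4.12 ± 1.499 FPKM, and Mki67, a marker of dividing cells, from 0.103 ± 0.0355 to 0.942 ± 0.406 FPKM. The call of Mki67 was lost without uninjured replicate 1, 2, 3, 4 or 5 or day 14 replicate 1, 4, 5 or 6, or with no filter on low values or quantile normalization (adjusted p up to 0.0911). All 6 day 14 muscles lay above the uninjured range for 16 of the list's 24 genes, beside 7.67% of all tested genes. The 4 calls, 16.7% of the list beside the 9.02% of all genes, became 2 without uninjured replicate 2 or day 14 replicate 1. They became 1 without day 14 replicate 5. With a fit of these 2 groups alone, 17 of the list were called higher.

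Immediate early genes gave 6 higher and 0 lower of 19 (median 0.56). Atf3, a stress-induced factor, rose from 2.61 ± 1.16 to 10.2 ± 6.56 FPKM, and Jun and Myc rose by log2 fold changes of 0.91 and 1.02, while Fos, at 6.19 ± 2.68 and 11.7 ± 10.6 FPKM, did not pass (adjusted p = 0.683). Wnt pathway genes gave 5 higher and 2 lower of 18 (median 0.24), led by the secreted antagonists Sfrp2, from 0.03996 ± 0.0548 to 3.66 ± 3.395 FPKM, and Sfrp4, at a log2 fold change of 1.58. The 5 became 3 without uninjured replicate 3, 4 or 5 or day 14 replicate 2, 4 or 5, and 2 without day 14 replicate 1. With all muscles the Wnt shares were 27.8% and 11.1%, beside the 9.02% and 11.3% of all genes.

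Vascular, fat and blood genes showed no common direction. Endothelial and vascular growth genes gave 2 higher and 3 lower of 19 (median 0.02, which was -0.07 with quantile normalization). These are shares of 10.5% and 15.8%, beside the 9.02% and 11.3% of all genes. The endothelial markers Pecam1 and Cdh5 had log2 fold changes of 0.27 and 0.299 without passing, Plvap, of fenestrated vessels, rose by 1.098, and Kdr, the main receptor of VEGF, and the ligand gene Vegfb fell by 0.87 and 0.91. With TPM 0 genes of this list were called lower, so neither call was left. Adipocyte genes gave 3 higher and 1 lower of 12 (median 0.52), in which Adipoq, the defining marker, ranged from 0.369 to 6.55 FPKM at day 14 and did not pass (adjusted p = 0.152). The 3 became 0 without uninjured replicate 5 and 1 without any other uninjured muscle or day 14 replicate 1, 2, 4 or 5. With all muscles the adipocyte shares were 25% higher and 8.33% lower, beside the 9.02% and 11.3% of all genes. Red blood cell and iron genes gave 1 call of 12 (median -0.27, which was 0.18 with TPM), Slc40a1, the iron exporter ferroportin, which fell from 3.63 ± 0.388 to 1.64 ± 0.325 FPKM and was not called with TPM. That call is 8.33% of the list, beside the 11.3% of all genes called lower.

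The circadian clock genes shifted in both directions. Of 18 tested, 6 were called higher and 4 lower (median -0.06, which was 0.32 with TPM). Arntl, which encodes the activator BMAL1, was at 2.04, 2.98, 1.28, 2.397 and 1.83 FPKM in the uninjured muscles and at 0.409 to 0.756 at day 14 (log2 fold change -1.001 ± 0.14, adjusted p = 9.75e-05). Per2, a repressor of the clock, was at 0.257 to 0.486 FPKM in uninjured muscle and 2.67 to 6.87 at day 14 (log2 fold change 1.85 ± 0.28, adjusted p = 0.000198). Neither overlapped between groups, and Per1, Per3, Dbp, Ciart and Tef were also called higher. The hour at which the muscles were taken is not given in the sources used here, so time of day and injury cannot be told apart.

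Day 14 was set beside its neighbouring time points in the same fit. Against day 7 (n = 6), 49 genes were called, 0.335% of those tested, with 17 higher and 32 lower at day 14. Against day 21 (n = 5), limma called 0 genes, with 909 at an unadjusted p under 0.05 and a lowest adjusted p of 0.673, and each alternative tried also called 0. A count of 0 does not show that the muscles of days 14 and 21 were alike. The count against day 7 rested on single muscles. It was 151 without day 7 replicate 6, 20 or 21 without day 7 replicate 4 or 5, 25 without day 14 replicate 5, 16 without day 14 replicate 3 or 4 and 18 without day 14 replicate 6.

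Matrix genes were among those lower at day 14 than at day 7. Cthrc1, a secreted protein of scar-forming fibroblasts, had mean levels of 0.3697, 24.02 and 5.52 FPKM in uninjured, day 7 and day 14 muscle, and a log2 difference of -2.2 between day 14 and day 7 (adjusted p = 0.0233). Fn1 was at 3.02, 36.5 and 14.5 FPKM in the same order, with a log2 difference of -1.35 (adjusted p = 0.0238). Thbs2, Col16a1 and Col12a1, of the matrix, Adam12, a protease, and Twist1, a transcription factor of mesenchymal cells, had log2 differences of -1.13, -1.04, -0.83, -0.91 and -0.92 from day 7, and these 5 genes were chosen after their values were seen. Of the 32 genes lower than at day 7, 10 were called higher than uninjured at day 14, 4 were called lower and 18 were not called. With a fit of the day 7 and day 14 muscles alone, 0 genes were called lower at day 14 and 5 higher.

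Of the 17 genes higher at day 14 than at day 7, 14 were also called higher than uninjured, 2 lower and 1 was not called. The clock output gene Dbp was at 25.1, 18.7 and 50.4 FPKM in uninjured, day 7 and day 14 muscle, with a log2 difference of 1.42 from day 7. Ciart, a clock repressor, was at 1.896, 1.16 and 4.48 FPKM in the same order, with a log2 difference of 1.35. Ucp3, a mitochondrial uncoupling protein of muscle, was at 36.6, 12.2 and 25.3 FPKM, so its day 14 mean lay between those of day 7 and uninjured muscle. Ighg2c, a constant region of immunoglobulin G, was at 0.423, 1.62 and 6.01 FPKM, and Aldh3a1, an aldehyde dehydrogenase, at 0.0714, 0.964 and 5.597 FPKM. These 5 genes were also chosen after their values were seen, and the comparisons with day 7 and with uninjured muscle share the day 14 samples.

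**Figure D5:**
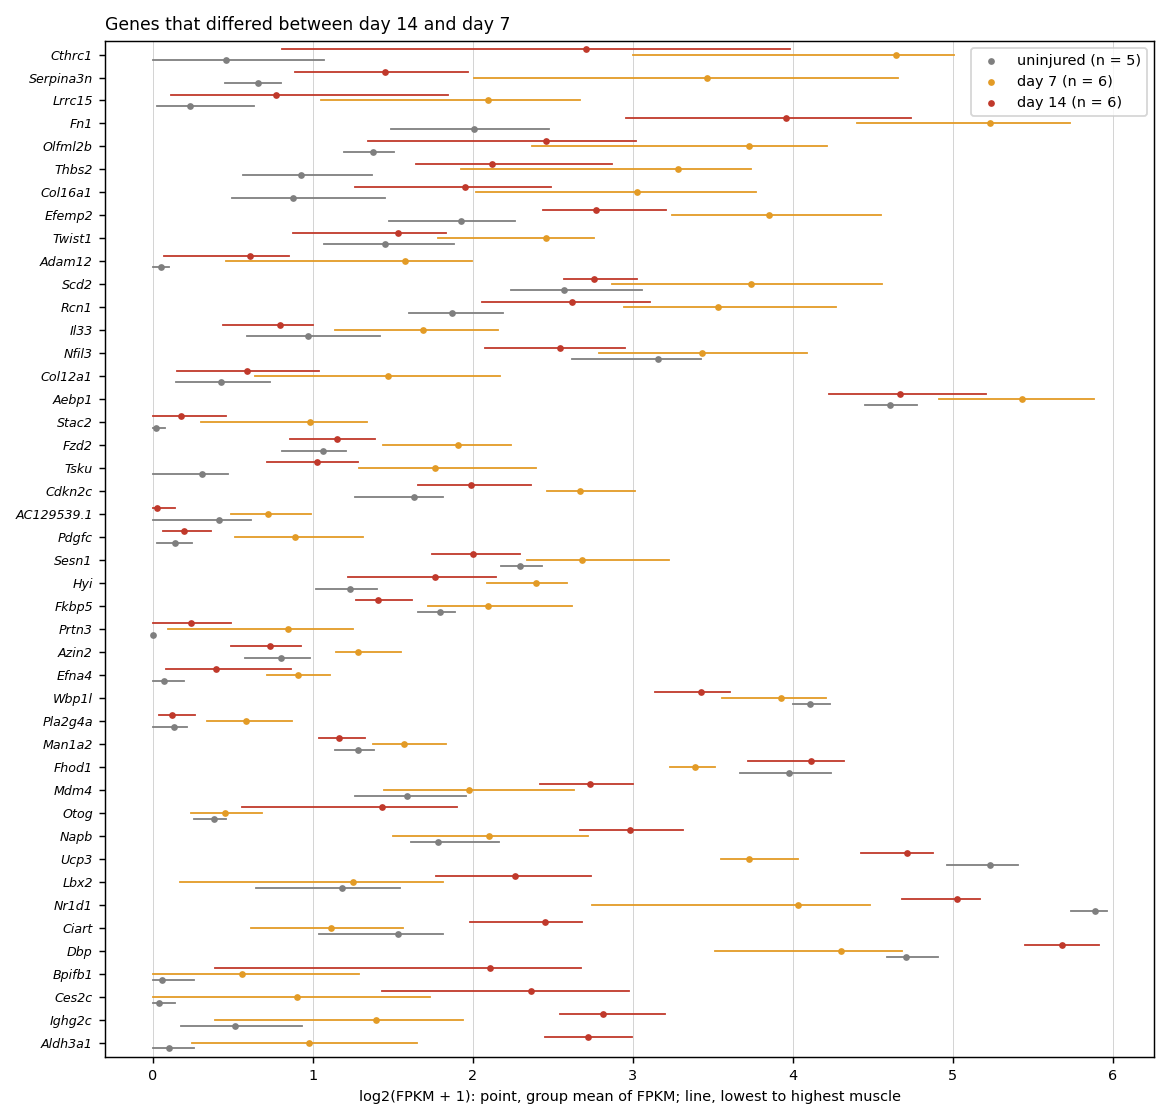
Level on the log2(FPKM + 1) scale, by group, of genes that differed between day 14 and day 7, predicted genes left out, in grey for 5 uninjured, orange for 6 day 7 and red for 6 day 14 muscles, with points for group means of FPKM and lines from the lowest to the highest muscle. Cthrc1 (log2 difference -2.20) and Fn1 (-1.35) are lower at day 14 than at day 7, and Dbp (1.42) and Ciart (1.35) higher.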

How the data were processed

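Poly-A RNA libraries, which were not directional, were sequenced from 27 tibialis anterior muscles. The authors aligned reads with HISAT2 2.0.5 and counted them with featureCounts 1.5.0-p3, per the submitters' processing notes, and deposited FPKM values per gene and sample with no pooling. The study's methods describe FPKM as scaled to mapped reads, but the read numbers recovered from the values were not those assigned to genes (0.747 to 1.33 times as many in the samples compared), and how they were set is not given in the sources used here. Neither is the genome build. Of the genes, 98.3% had the coordinates of GENCODE M21, which is GRCm38. FPKM multiplied by gene length gave whole reads for 100% of values within 0.1, and these reads served for depth and for voom weights. They were not the deposited unit, so no count model was used.

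Groups and replicate numbers were taken from the sample labels. Genes with 5 or more samples at FPKM of 0.5 or above were tested on log2(FPKM + 1) with limma 3.58.1 in R 4.3.3 (empirical Bayes with trend, 1 mean per group over all 27 samples, which share an estimate of the spread), with Benjamini-Hochberg adjustment within each contrast and two-sided p-values. The code was tested on simulated data. Alternatives were a pseudocount of 0.1 or 0.5, no filter or a minimum of 1, median-ratio, TPM and quantile scaling, no trend, voom weights, the replicate number as a block, only the groups compared, and leaving out each sample in turn.

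The gene lists and the comparison were chosen with earlier results of these data known. Named genes were the 12 largest increases and 12 largest decreases among called genes whose groups did not overlap, predicted genes left out, then the first 2 tested and the 2 called members of each list with the largest change (3 for lists defined by a name pattern), and genes whose sequence is shown. Further list members are named to account for counts. Promoter sequences were read from RefSeq, GRCm38.p6. A few list members are not reported here.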

Additional observations from a re-analysis of the deposited data

Results flagged for a closer look

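In 20 of 342 groups of named-gene values, the highest or lowest sample lay farther from the others than Dixon's test allows on the log2(FPKM + 1) scale, and 17.1 such groups, 5%, would be found by chance alone. Among the uninjured muscles, replicate 3 was highest for Rrad (5.46 FPKM), Mymk (0.62), Myh8 (0.985) and Runx1 (0.269) and lowest for Smox (94.4). Replicate 1 was highest for Ldhb (215 FPKM), Hspb1, a small heat shock protein (321), Igfbp2 (0.0813), Sdhd (368) and Atp5c1, an ATP synthase subunit (774.5). Replicate 5 was highest for Mymx (0.466 FPKM) and Ndufaf4, a complex I assembly factor (18.6), and lowest for Irf9 (1.14). Replicate 4 was highest for Ccl8 (0.477 FPKM) and Psmd7, a proteasome subunit (81.1), and lowest for S100b, a Schwann cell gene (0.11). Replicate 2 was lowest for Slc40a1 (2.96 FPKM).

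At day 14, replicate 6 was lowest for Mymk (6.18 FPKM), replicate 1 highest for Idh2 (35.9) and replicate 3 lowest for Plvap (8.22). The low Mymk value still lay above every uninjured muscle.

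The change from uninjured muscle differed between days 14 and 7 for 2 of the named genes. The day 14 minus day 7 difference in log2(FPKM + 1) was -1.35 for Fn1 and -2.20 for Cthrc1 (limma, adjusted p = 0.0238 and 0.0233). Neither was called in a fit of the day 7 and day 14 muscles alone, which called 0 genes lower at day 14.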

How the results depend on the processing

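The counts of 1320 genes higher and 1649 lower at day 14 became 2096 and 117 with TPM. Leaving out each sample in turn gave 835 to 1451 higher and 1060 to 1752 lower, with the lowest of both without day 14 replicate 5. The 49 genes that differed from day 7 became 18 with a pseudocount of 0.1, 11 without a filter, 5 with TPM and 5 with only the groups compared, and 16 to 151 in the fits that each left out a sample. Under the other settings all 3 counts stayed within 1.5 times those reported. The count against day 21 was 0 under each setting, with 580 to 1634 genes at an unadjusted p under 0.05. With the replicate number as a block, 1643 genes were higher and 2041 lower, 50 differed from day 7 and 0 from day 21. Same-numbered samples of both groups had correlations of -0.21 to 0.14 over 5 pairs and others -0.36 to 0.25 over 25. With only 5 such pairs, these values cannot tell whether samples of the same number share a pairing or batch. Of 131 named genes called, 75 kept call and direction in all 22 alternatives. With TPM, 38 of the 60 lower calls were lost and 20 kept, 70 of the 71 higher calls were kept, and 2 genes reversed without being called, Ndufaf7 (0.0655) and Rpl7l1 (0.14). The cause of these changes was not tested, beyond the shift of the median of all genes from 0.02 to 0.36 with TPM. Median-ratio scaling gave 1343 genes higher and 1598 lower, at a median of 0.026 over all genes. FPKM was not scaled to the reads assigned to genes, and decreases of small size depend on the scaling chosen.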
